A study of Homo sapiens with 12 samples.

Results

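The genes described here are 36 genes of the unfolded protein response of the endoplasmic reticulum (ER). They were taken from a fixed list of symbols and matched to the Ensembl identifiers of the expression table. All 36 were found among the 62703 identifiers, and all 36 were among the 14639 genes that passed the filter on low values. They fall into 6 groups by role: 9 chaperones and cofactors of the ER lumen, the 2 lectin chaperones, 6 genes of disulfide bond formation, 10 genes of ER-associated degradation, 4 genes of the stress sensors and XBP1, and 5 genes of translocation and export.

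The unfolded protein response restores folding capacity when client proteins crowd the ER. The sensors IRE1 (encoded by ERN1), PERK (encoded by EIF2AK3) and ATF6 sit in the ER membrane and are held inactive by the chaperone BiP (encoded by HSPA5). Once released, IRE1 splices XBP1 mRNA, ATF6 is cleaved to a transcription factor, and PERK phosphorylates eIF2α, which slows translation and favours ATF4. XBP1 and ATF6 then raise chaperones, folding enzymes and the degradation machinery. In the kidney the tubular epithelium makes and recycles large amounts of membrane and secreted protein, and this response has been studied there in diabetic injury.

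RNA of HK2 cells, a proximal tubule line of human origin immortalised in culture, was sequenced in 4 groups of 3 libraries. NG cells were kept in 5.5 mM glucose by the labels and received a control vector. The study's text describes the NG medium in 1 passage as containing mannitol, an osmotic control, so that whether HG versus NG includes a difference in osmolarity cannot be told. HG cells were kept in 50 mM glucose, and whether they received a control vector is not stated. The si-FGF9 cells were kept in 5.5 mM glucose and transfected with an siRNA against FGF9, a fibroblast growth factor, and no non-targeting siRNA is described for them. HG+OE-FGF9 cells were kept in 50 mM glucose and carried a viral vector for FGF9, described as lentiviral in one place and adenoviral in another. Nothing states that the 3 libraries of a group came from separate cultures, so that p-values measure the spread between these libraries, which may be technical. A population of cells was measured, and fewer cells of a type cannot be told apart from less RNA per cell.

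The authors deposited TPM (transcripts per 1000000 transcripts, a level corrected for gene length), which keep no record of sequencing depth. The test was limma on log2(TPM + 1), fitted to all 12 libraries at once. A gene was called where the log2 fold change was at least 1 in either direction and the unadjusted p was under 0.01, and Benjamini-Hochberg adjusted p over the 14639 genes are given beside it. All fold changes are given on that scale, where the change of a low gene is understated. An exact two-sided permutation test of 1 gene has 0.1 as its smallest possible p at 3 libraries per group. The comparisons of HG and of si-FGF9 with NG share the NG libraries, and HG+OE-FGF9 versus HG shares the HG libraries with the first of them, so their values are not independent.

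FGF9 was listed at 0 TPM in the 9 NG, HG and si-FGF9 libraries and at 3.34, 4.03 and 3.82 TPM in the HG+OE-FGF9 libraries, so the table holds no check of the siRNA. Of 12 markers of the proximal tubule, 8 stayed under 1 TPM in every library, among them LRP2, CUBN and SLC22A6, and GGT1 and PAX8 were present. Of 6 markers of simple epithelium, CDH1 stayed under 1 TPM (at most 0.28 TPM). KRT8 was at 389 to 678 TPM, KRT18 at 211 to 419 TPM and KRT19 at 222 to 449 TPM. EPCAM (3.95 to 31.3 TPM) and CDH2 (15.1 to 91.6 TPM) were highest in NG. All 5 markers of other tubule segments and all 4 of endothelium were under 1 TPM. So were 3 of 4 leukocyte, 3 of 4 podocyte and 2 of 4 fibroblast markers, and the exceptions were CD68 (108 to 159 TPM), PODXL (3.29 to 17.6 TPM, highest in NG), COL1A1 (1.54 to 7.81 TPM) and DCN (at most 3.91 TPM). HG replicate 3 stood apart. The SD of its log2 ratio to HG replicates 1 and 2 over 3839 genes was 0.585 and 0.770, against 0.363 between those 2 libraries. HG+OE-FGF9 replicates 1 and 2 (SD 0.101), NG replicates 2 and 3 (0.130) and si-FGF9 replicates 1 and 2 (0.182) lay closer together than the other pairs. The values in HG libraries are therefore given with and without HG replicate 3 wherever a result turns on it.

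Many promoters of this response carry the ER stress response element (ERSE), CCAAT and CCACG separated by 9 bases (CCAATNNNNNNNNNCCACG), or the shorter ERSE-II (ATTGGNCCACG), both bound by ATF6 and XBP1 together with the factor NF-Y. Both strands of the RefSeq promoter windows on GRCh38.p14 (250 bases before the start and 50 from it on) were searched for these letters. Windows were found for 32 of the 36 genes, and not for DERL1, DERL3, PDIA3 and SEC24D. They have 41 windows, since a gene with several starts has several. ERSE was found in 8 of the 32 genes (25%) and in 25 of all 27305 genes with a window (0.0916%), or 27 of 35116 windows (0.0769%). ERSE-II was found in 3 of the 32 (9.38%) and in 19 of all genes (0.0696%), or 0.0541% of windows. The shared letters CCACG, which both motifs contain, occurred in 24 of the 32 (75%) and in 42.1% of all genes, or 38.1% of windows. A match is a description of these letters and not a measured binding site. The elements of the genes whose values the results below turn on are shown with flanks of up to 12 bases, 5′ to 3′ on the strand of the gene, and the capitals mark the motif, which reads as its reverse complement (beginning CGTGG) where it lies on the other strand.
HSPA5, ERSE, chr9:125241379-125241421, minus strand: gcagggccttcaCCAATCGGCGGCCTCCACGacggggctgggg
HSP90B1, ERSE, chr12:103930204-103930246, plus strand: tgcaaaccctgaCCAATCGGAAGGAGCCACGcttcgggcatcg
HSP90B1, second ERSE, chr12:103930309-103930351, plus strand: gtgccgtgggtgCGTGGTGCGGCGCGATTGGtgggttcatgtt
XBP1, ERSE, chr22:28800591-28800633, minus strand: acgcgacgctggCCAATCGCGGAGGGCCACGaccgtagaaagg
CANX, ERSE, chr5:179698766-179698808, plus strand: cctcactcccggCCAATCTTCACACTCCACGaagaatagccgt
CRELD2, ERSE, chr22:49918542-49918584, plus strand: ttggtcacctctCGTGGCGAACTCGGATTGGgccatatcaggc
SDF2L1, ERSE-II, chr22:21642102-21642136, plus strand: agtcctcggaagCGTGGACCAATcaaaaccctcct
HERPUD1, ERSE-II, chr16:56932013-56932047, plus strand: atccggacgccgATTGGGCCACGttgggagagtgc
In HSP90B1 the elements lie in opposite orientation, and the first base of the motif lies at -194 and -89 relative to the start. CALR, PDIA6 and ERO1B also held ERSE, and HYOU1 held 2 copies of ERSE-II. Of the 11 genes with either element, 4 were called lower and 0 higher in HG versus NG, 5 lower and 1 higher in si-FGF9 versus NG, and 0 lower and 2 higher in HG+OE-FGF9 versus HG. Of all genes tested, 22.7% were called lower and 1.65% higher in the first comparison, 42.2% and 5.36% in the second, and 2.67% and 2.94% in the third. Of the 21 with a window and no element, the counts were 10 and 0, 11 and 0, and 0 and 0. Of the 4 genes without a window, which could not be searched, they were 1 and 0, 2 and 1, and 0 and 1. The gene called higher among these 4 was DERL3.

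The 36 genes summed to between 12713 and 14962 TPM in the NG libraries. The sum was 6958, 6076 and 11746 TPM in the HG libraries, 6246 to 8201 TPM in the si-FGF9 libraries and 6675 to 7156 TPM in the HG+OE-FGF9 libraries. All 9 libraries outside NG thus lay below the lowest NG library on the TPM scale. Median-of-ratios scaling divides the TPM of each library by a factor that centres the libraries on each other. This factor was 1.44 to 1.52 in NG, 0.902 to 1.12 in HG, 0.691 to 0.756 in si-FGF9 and 0.869 to 1.10 in HG+OE-FGF9. After this division the si-FGF9 libraries and HG replicate 3 no longer lay below the lowest NG library. CALR, HSPA5, HSP90B1, P4HB and PDIA3 were the 5 most abundant in each library and made up 67.4% to 78.4% of the sum. In NG their order was CALR (2841 ± 104 TPM, SD, n = 3), HSP90B1 (2835 ± 664), HSPA5 (2644 ± 285), P4HB (1112 ± 65.7) and PDIA3 (926 ± 82.4), and the first 3 did not differ beyond their spread. The least abundant were DERL3 (1.75 ± 0.612 TPM) and ERN1 (3.81 ± 0.0451).

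**Figure D1:**
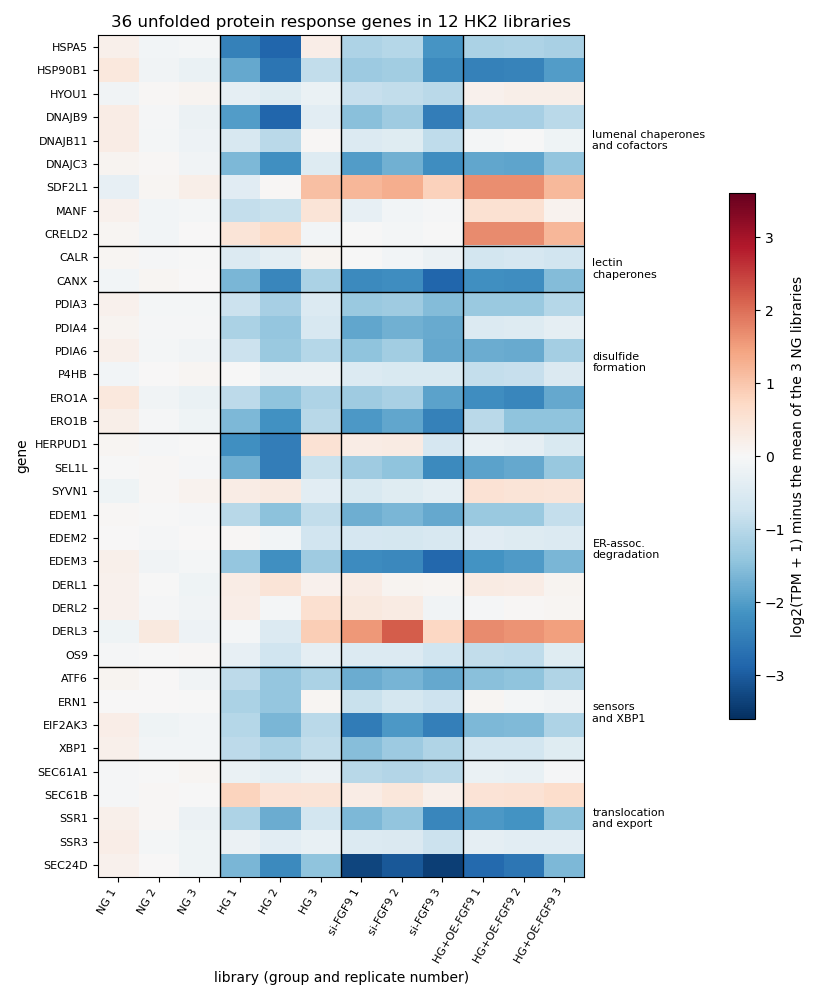
Each row is 1 of the 36 genes, ordered by role, each column 1 of the 12 libraries, and the colour gives log2(TPM + 1) minus the mean of the 3 NG libraries. HG replicate 3 is paler than HG replicates 1 and 2 for HSPA5, DNAJB9, HERPUD1 and SEL1L, and SDF2L1 and DERL3 stand out as higher in the si-FGF9 and HG+OE-FGF9 libraries.

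In HG versus NG, 15 of the 36 genes (41.7%) were called lower and 0 higher, where 22.7% of all genes tested were called lower and 1.65% higher. The median log2 fold change of the 36 genes was -0.91, against -0.39 over all genes tested. At an adjusted p under 0.05 with any fold change, 21 were lower (background 40.5%) and 1, SEC61B, was higher (background 8.53%). The values did not overlap between the groups in 21 genes that were lower, where the share over all genes was 46.5%, and in 1 that was higher (background 10.7%). Below the median of all genes lay 23 of the 36. Median-of-ratios scaling, which centres the libraries on each other, moved the median of all genes from -0.39 to 0.0043, and to -0.01 and -0.03 in the comparisons that follow. With it, 20 of the 36 lay below the median of all genes, and 6 were called lower (background 8.47%) and 1 higher (background 7.26%).

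In si-FGF9 versus NG, 18 genes (50%) were called lower and 2, SDF2L1 and DERL3, higher, beside 42.2% and 5.36% of all genes. The median was -1.16, and -0.79 over all genes. The 18 included PDIA3, XBP1 and SEC61A1, which were not called in HG versus NG, and both comparisons rest on the same NG libraries. At an adjusted p under 0.05 with any fold change, 25 were lower (background 57.7%) and 2 higher (background 11.6%). The values did not overlap in 27 lower genes (background 62.1%) and 3 higher ones (background 14.3%). With median-of-ratios scaling 6 were called lower (background 17.8%) and 5 higher (background 18.9%). The share called lower was thus near the share over all genes in this comparison.

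In HG+OE-FGF9 versus HG, 0 genes were called lower and 3, SDF2L1, CRELD2 and DERL3, higher (8.33%), beside 2.67% and 2.94% of all genes. The median was -0.07, and -0.13 over all genes. At an adjusted p under 0.05 with any fold change, 5 were higher (background 4.82%) and 2 lower (background 4.71%). HYOU1 and PDIA4 were added to the higher genes, and P4HB and ERO1A were the lower ones. The values did not overlap in 7 higher genes (background 12.2%) and 3 lower ones (background 9.95%). With median-of-ratios scaling the same 3 genes were called higher (background 3.45%) and 0 lower (background 1.92%).

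**Figure D2:**
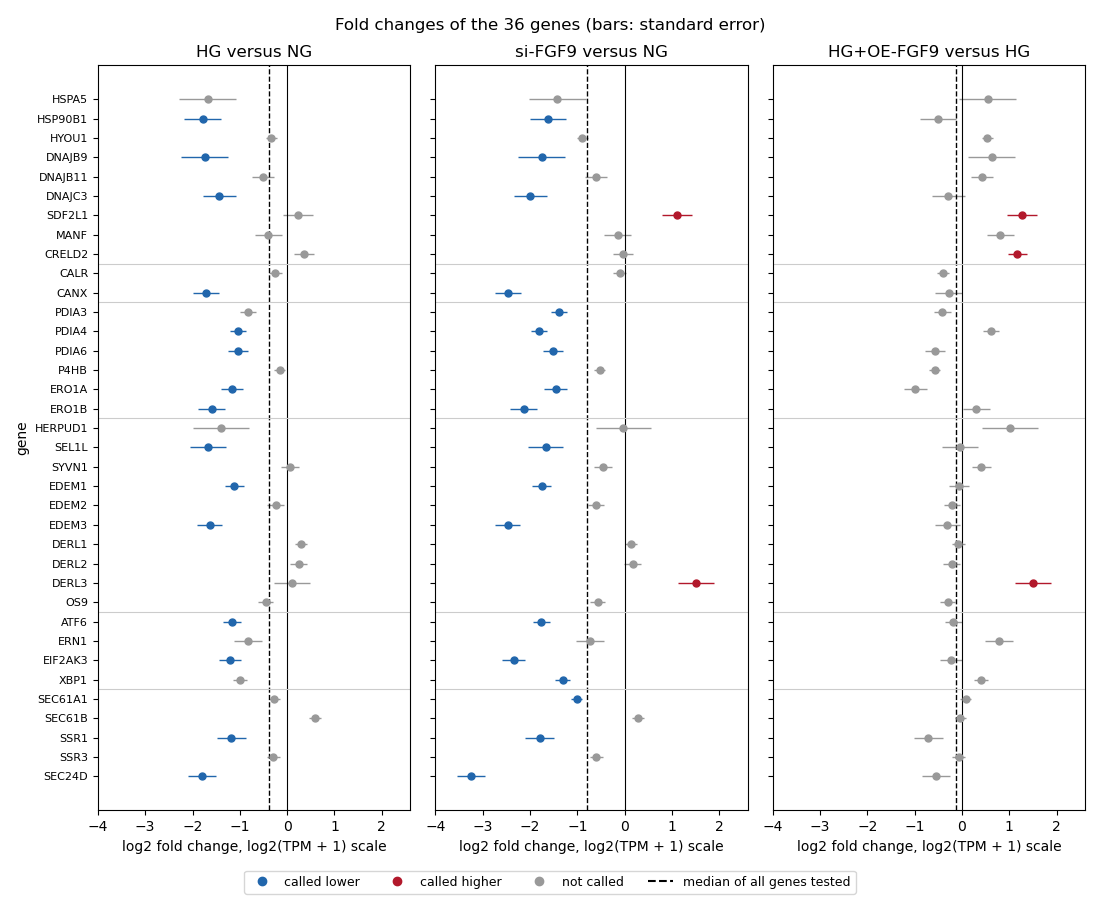
Points give the log2 fold change on the log2(TPM + 1) scale of each of the 36 genes in the 3 comparisons, bars the standard error from limma, blue and red the genes called lower and higher, and dashed lines the median of all genes tested (-0.39, -0.79 and -0.13). SEC24D lies farthest to the left in both comparisons with NG, and SDF2L1, CRELD2 and DERL3 are the red points in HG+OE-FGF9 versus HG.

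Among the chaperones and cofactors of the ER lumen, 3 of 9 (HSP90B1, DNAJB9 and DNAJC3) were called lower in HG and in si-FGF9. Of all genes, 22.7% and 42.2% were. SDF2L1 was called higher in si-FGF9 (background 5.36%). In HG+OE-FGF9 versus HG, SDF2L1 and CRELD2 were called higher (background 2.94%). HSPA5 encodes BiP, the main Hsp70 chaperone of the ER and the keeper of the sensors. HSPA5 was at 2973, 2461 and 2499.9 TPM in NG and at 488, 366 and 3088 TPM in HG. It was at 1208, 1303 and 606 TPM in si-FGF9 and at 1192, 1215 and 1176 TPM in HG+OE-FGF9. HG replicate 3 was the highest of all 12 libraries and HG replicates 1 and 2 the lowest, so that HG overlapped both NG and HG+OE-FGF9. HG versus NG gave a log2 fold change of -1.68 (SE 0.60, adjusted p 0.0359, not called). Without HG replicate 3 it was -2.64 (adjusted p 7.31e-05, called). In HG+OE-FGF9 versus HG it was 0.54 (adjusted p 0.57) with all libraries and 1.50 (adjusted p 0.00563, called) without HG replicate 3. On the TPM scale all 3 si-FGF9 libraries lay below the lowest NG library, with a log2 fold change of -1.42 (SE 0.60, adjusted p 0.0521). That comparison also passed the call (adjusted p 0.000281) without HG replicate 3, whose spread enters the shared variance. After the correction for GC content HSPA5 differed from NG by -1.14 in HG and by -0.49 in si-FGF9. With median-of-ratios scaling the values were -1.17 and -0.39, and none of these passed the call.

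HSP90B1 encodes GRP94, the Hsp90 chaperone of the ER, which folds integrins, Toll-like receptors and insulin-like growth factors. HSP90B1 was at 3595, 2539.9 and 2370.4 TPM in NG and at 770.4, 454 and 1501 TPM in HG. It was at 1127, 1166 and 565 TPM in si-FGF9 and at 518, 521 and 686 TPM in HG+OE-FGF9. The 3 NG libraries were the highest 3 and overlapped no other group. It was called lower in HG (-1.79, SE 0.38, adjusted p 0.00321) and si-FGF9 (-1.62, adjusted p 0.00235) than in NG, and both calls held with any 1 library left out. The difference was smaller after the correction for GC content, -0.83 and -0.14, and neither passed the call.

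DNAJB9 (ERdj4), a co-chaperone of BiP that brings it to IRE1 and to misfolded proteins, followed a similar order. DNAJB9 was at 40.9, 32.3 and 28.7 TPM in NG, at 7.62, 3.83 and 25.5 TPM in HG, at 11.3, 13.3 and 5.20 TPM in si-FGF9 and at 14.1, 14.0 and 16.8 TPM in HG+OE-FGF9. HG replicate 3 came close to the lowest NG library, and the other 8 libraries outside NG were at 16.8 TPM or less. HG versus NG gave -1.74 (SE 0.49, adjusted p 0.0125) on the log2 scale and si-FGF9 versus NG -1.75 (adjusted p 0.00726), both called. The first call was lost without NG replicate 1, NG replicate 2, HG replicate 1 or HG replicate 2, and the second without NG replicate 1, NG replicate 2 or si-FGF9 replicate 3, with log2 fold changes between -2.42 and -1.20 in the first and between -1.99 and -1.38 in the second. DNAJC3 (P58IPK), an inhibitor of PERK and a co-chaperone of BiP, was at 14.0 to 16.2 TPM in NG, 2.52 to 10.7 TPM in HG, 2.42 to 3.87 TPM in si-FGF9 and 3.38 to 5.06 TPM in HG+OE-FGF9. NG overlapped no other group, and DNAJC3 was called lower in HG (-1.43, adjusted p 0.00601) and in si-FGF9 (-1.996, adjusted p 0.000291). Neither gene was called after the correction for GC content (DNAJB9 -0.74 and -0.21, DNAJC3 -0.39 and -0.42).

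SDF2L1, a small ER protein that works with BiP and its DNAJ partners, moved the other way. SDF2L1 was at 14.8, 19.6 and 21.6 TPM in NG and at 13.6, 18.9 and 40.0 TPM in HG. It was at 43.7, 46.9 and 33.8 TPM in si-FGF9 and at 61.0, 60.7 and 42.6 TPM in HG+OE-FGF9. The si-FGF9 libraries lay above all NG libraries and the HG+OE-FGF9 libraries above all HG libraries, in the latter case by a narrow margin because HG replicate 3 was at 40.0 TPM. Its log2 fold change of 1.11 against NG in si-FGF9 (SE 0.32, adjusted p 0.00796) was called, as was that of 1.27 against HG in HG+OE-FGF9 (SE 0.32, adjusted p 0.0291). The first call was lost without NG replicate 1 (0.96), NG replicate 2 (1.15), si-FGF9 replicate 1 (1.07) or si-FGF9 replicate 2 (1.02), and the second without HG replicate 1 (0.94, adjusted p 0.119). SDF2L1 has the highest GC content of the 36 genes, 65.5%, and after the correction for GC content the si-FGF9 difference was 0.77 and not called. With median-of-ratios scaling that difference was 2.10 (adjusted p 0.000223) and called.

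CRELD2, a secreted ER protein with a role in folding and a known target of ATF6, was at 21.0, 18.4 and 20.2 TPM in NG and at 27.8, 32.8 and 18.5 TPM in HG. CRELD2 was at 19.5, 18.9 and 19.7 TPM in si-FGF9 and at 66.5, 66.3 and 47.0 TPM in HG+OE-FGF9. Only the HG+OE-FGF9 libraries stood clear of the other groups, and here HG replicate 3 was the lowest of the HG libraries rather than the highest. HG+OE-FGF9 exceeded HG by 1.17 on the log2 scale (SE 0.20, adjusted p 0.00538), and by 1.11 after the correction for GC content, also called. Without HG replicate 3 it was 0.95 (adjusted p 0.00483), under the fold the call requires.

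Of the other lumenal cofactors, HYOU1 (GRP170), an exchange factor of BiP, was at 58.0 to 67.8 TPM in NG, 46.9 to 53.8 TPM in HG, 32.3 to 35.2 TPM in si-FGF9 and 71.1 to 74.3 TPM in HG+OE-FGF9, with no overlap in any of the 3 comparisons. Its log2 fold changes were -0.34 (adjusted p 0.0352), -0.89 (adjusted p 4.55e-05) and 0.53 (adjusted p 0.018), all under the fold of the call, and the first 2 turned to 0.17 and 0.12 with median-of-ratios scaling. MANF, a secreted factor that stabilises BiP complexes, was at 118, 122 and 298 TPM in HG and at 235 to 316 TPM in HG+OE-FGF9, and passed the call there (1.24) only with HG replicate 3 left out. DNAJB11 (ERdj3) was at 50.5 to 103 TPM in HG, within reach of the 88.3 to 121 TPM of NG, and was called in no comparison.

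**Figure D3:**
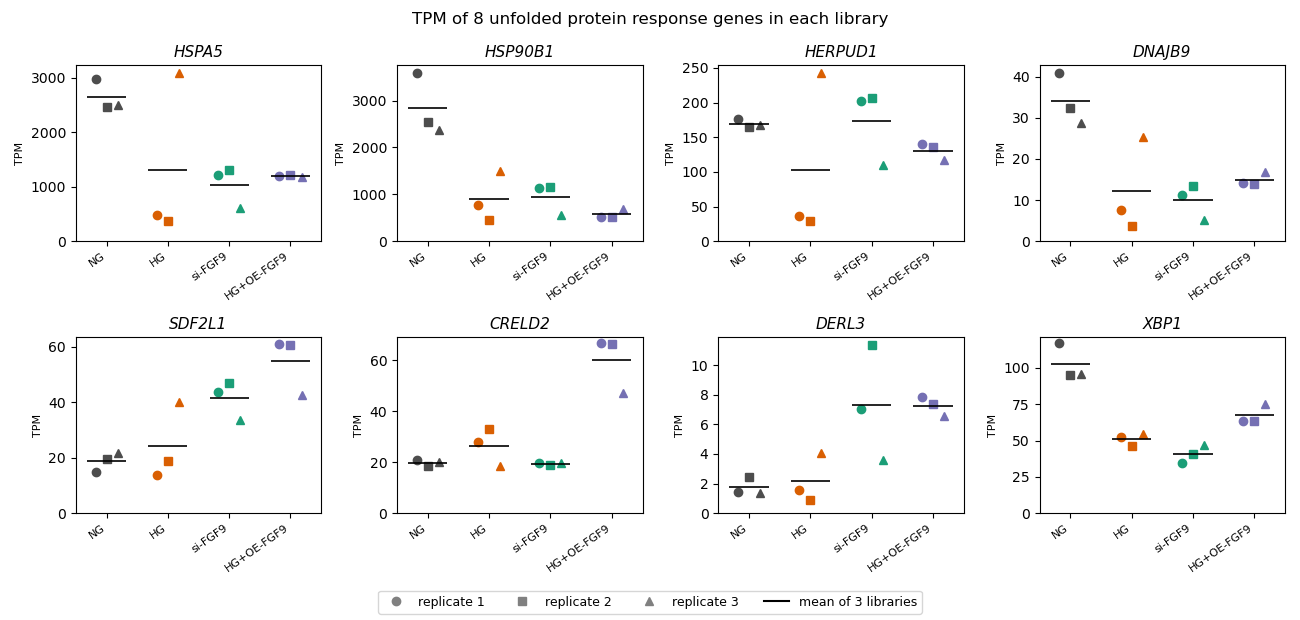
Each panel shows the TPM of 1 gene on a linear axis from 0, with 1 point per library (circle, square and triangle for replicates 1, 2 and 3) and a line at the mean of 3 libraries. The HG triangle (replicate 3) lies at 3088 TPM for HSPA5 and 243 TPM for HERPUD1, above every NG library, while XBP1 is at 46.0 to 54.3 TPM in all 3 HG libraries.

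The lectin chaperones bind monoglucosylated glycoproteins in the calnexin and calreticulin cycle, CANX from the membrane and CALR from the lumen. CANX was at 311, 351 and 339 TPM in NG, at 105, 64.8 and 149.6 TPM in HG, at 67.7, 69.7 and 45.0 TPM in si-FGF9 and at 71.5, 70.5 and 111 TPM in HG+OE-FGF9. Each library outside NG had less than 150 TPM, and CANX was called lower in HG (-1.72, SE 0.28, adjusted p 0.00115) and in si-FGF9 (-2.46, adjusted p 1.84e-05). After the correction for GC content the si-FGF9 call was made (-1.02, adjusted p 0.000161) and the HG call was not (-0.79). CALR was at 2762 to 2959 TPM in NG, 2024 to 3017 TPM in HG, 2469 to 2789 TPM in si-FGF9 and 1768 to 1851 TPM in HG+OE-FGF9. CALR was called in none of the comparisons (-0.25, -0.11 and -0.40 on the log2 scale).

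In disulfide formation 4 of 6 genes were called lower in HG versus NG (PDIA4, PDIA6, ERO1A and ERO1B), where 22.7% of all genes were, and 5 of 6 in si-FGF9 versus NG, with PDIA3 added, where 42.2% were. With the GC correction 0 of the 4 calls in HG were made (PDIA4 -0.86, PDIA6 -0.48, ERO1A -0.08 and ERO1B -0.47), and in si-FGF9 PDIA4 alone was called (-1.33) and ERO1A turned to 0.17. The HG call of PDIA4 was lost without NG replicate 1 (-0.998), HG replicate 1 (-0.99) or HG replicate 2 (-0.86), that of PDIA6 without NG replicate 1 (-0.94) or HG replicate 2 (-0.89), and that of ERO1A without NG replicate 1 (-0.98). PDIA4 (ERp72), a protein disulfide isomerase, was at 388, 352 and 357 TPM in NG and at 164, 138 and 244 TPM in HG. It was at 98.5, 110.0 and 102 TPM in si-FGF9 and at 260.1, 266 and 291 TPM in HG+OE-FGF9. The 4 groups did not overlap in any of the comparisons made, with NG highest and si-FGF9 lowest. The log2 fold changes were -1.04 (SE 0.17, adjusted p 0.00127), -1.81 (SE 0.17, adjusted p 8.7e-06) and 0.62 (adjusted p 0.0463, under the fold of the call).

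ERO1A and ERO1B encode the oxidases that pass electrons from disulfide isomerases to oxygen, and ERO1A is also induced by hypoxia. ERO1A was at 239, 168 and 158 TPM in NG, 96.4, 66.8 and 85.4 TPM in HG, 75.8, 82.7 and 47.6 TPM in si-FGF9 and 38.3, 35.5 and 50.5 TPM in HG+OE-FGF9. HG+OE-FGF9 lay below HG in every library (-0.98, SE 0.24, adjusted p 0.025), just under the fold of the call, which was reached without HG replicate 2 or HG+OE-FGF9 replicate 3. ERO1B was at 7.63 to 10.2 TPM in NG and at most 3.97 TPM elsewhere, and was called lower in HG (-1.59, adjusted p 0.00153) and in si-FGF9 (-2.13, adjusted p 4.51e-05). P4HB (PDI), the most abundant isomerase, was not called in HG versus NG (-0.15, adjusted p 0.3), and HG+OE-FGF9 libraries had less of it than HG libraries (-0.58, adjusted p 0.0107). PDIA3 (ERp57), the partner of the lectin chaperones, was at 876 to 1021 TPM in NG and 313 to 379.6 TPM in si-FGF9 (-1.39, adjusted p 2.76e-05). Its pseudogene PDIA3P1 reached 6.59 TPM, and the 2 annotated PDIA3 pseudogenes made up at most 1.77% of the summed TPM of gene and copies. PDIA6 was called lower in HG (-1.04) and in si-FGF9 (-1.52, adjusted p 5.04e-05).

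ER-associated degradation held genes of both kinds: SEL1L, EDEM1 and EDEM3 were called lower in HG and in si-FGF9, and DERL3 higher in si-FGF9 versus NG and in HG+OE-FGF9 versus HG. The lower calls were 3 of 10 genes in each comparison with NG, where 22.7% and 42.2% of all genes were called lower. The background of the DERL3 calls was 5.36% and 2.94%. After the correction for GC content SEL1L (-0.61 and -0.07), EDEM1 (-0.51 and -0.74) and EDEM3 (-0.54 and -0.84) were called in neither. HERPUD1, an early target of the response that organises the degradation complex, was at 177, 165 and 167 TPM in NG and at 35.9, 29.4 and 243 TPM in HG. It was at 203, 207 and 111 TPM in si-FGF9 and at 139.6, 136 and 117 TPM in HG+OE-FGF9. HG replicate 3 had 7.44 times the mean of HG replicates 1 and 2, the highest ratio of the 36 genes. The HG versus NG difference was -1.39 (SE 0.59, adjusted p 0.0689, not called), and -2.35 (adjusted p 6.53e-05, called) without that library. In HG+OE-FGF9 versus HG it was 1.02 (adjusted p 0.275), and 1.97 (adjusted p 0.000649, called) without it.

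DERL3 is the least abundant of the derlins, membrane proteins of the retrotranslocation channel. DERL3 was at 1.42, 2.46 and 1.38 TPM in NG and at 1.58, 0.920 and 4.04 TPM in HG. It was at 7.01, 11.3 and 3.58 TPM in si-FGF9 and at 7.84, 7.37 and 6.54 TPM in HG+OE-FGF9. Both calls (1.50, SE 0.38, adjusted p 0.00386 in si-FGF9 and 1.49, SE 0.38, adjusted p 0.0312) rest on low levels at an unknown depth. The first was lost without si-FGF9 replicate 2 (1.16) and the second without HG replicate 2 (1.19, adjusted p 0.0558). DERL1 and DERL2 were at 54.6 to 115 TPM in all libraries and were called in no comparison, but after the correction for GC content both were called higher against NG, DERL1 by 1.09 in HG and 1.40 in si-FGF9 and DERL2 by 1.31 and 1.78.

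SEL1L, the scaffold of the HRD1 ubiquitin ligase, was at 22.9 to 24.1 TPM in NG, 3.37 to 13.1 TPM in HG, 3.98 to 9.08 TPM in si-FGF9 and 5.39 to 8.40 TPM in HG+OE-FGF9. It was called lower in HG (-1.67, adjusted p 0.00398) and in si-FGF9 (-1.67, adjusted p 0.00168). SYVN1, the HRD1 ligase itself, was at 6.36 to 8.03 TPM in NG and 5.38 to 9.26 TPM in HG, and was called in no comparison. The EDEM proteins trim mannose from glycoproteins bound for degradation. EDEM3 was at 9.99 to 12.7 TPM in NG, 1.57 to 3.89 TPM in HG and 0.670 to 1.50 TPM in si-FGF9, and its log2 fold changes of -1.63 (adjusted p 0.00113) and -2.47 (adjusted p 1.4e-05) were called. EDEM1 followed at -1.11, a call lost without HG replicate 2 (-0.93), and -1.75, whereas EDEM2 was at 26.1 to 27.1 TPM in NG and 16.3 to 27.6 TPM in HG and was called in neither. OS9, a lectin of the same pathway, was at 246 to 258 TPM in NG and 133 to 258 TPM over all libraries, and its largest log2 fold change was -0.56 in si-FGF9, or 0.47 with median-of-ratios scaling.

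Of the sensors, ATF6 and EIF2AK3 were called lower in both comparisons with NG, and XBP1 in si-FGF9 versus NG. The share of all genes called lower was 22.7% in HG versus NG and 42.2% in si-FGF9 versus NG. EIF2AK3, which encodes PERK, was at 15.5, 11.5 and 12.1 TPM in NG, at 5.89, 3.47 and 6.09 TPM in HG, at 1.45, 2.33 and 1.53 TPM in si-FGF9 and at 3.50, 3.62 and 5.46 TPM in HG+OE-FGF9. The NG libraries overlapped no other group, and the si-FGF9 libraries lay below all the rest. EIF2AK3 differed from NG by -1.21 (SE 0.24, adjusted p 0.00222) in HG and by -2.34 (SE 0.24, adjusted p 1.07e-05) in si-FGF9 on the log2 scale. After the correction for GC content these were -0.53, not called, and -1.24, called, and the HG call was also lost without HG replicate 2 (-0.99). ATF6 was at 15.8 to 18.7 TPM in NG, 5.94 to 8.57 TPM in HG, 4.08 to 4.79 TPM in si-FGF9 and 5.41 to 7.63 TPM in HG+OE-FGF9 (-1.16, adjusted p 0.000982 and -1.76, adjusted p 1.12e-05). Both ATF6 calls were lost after the correction for GC content (-0.21 and -0.30).

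XBP1 was at 117, 94.9 and 95.6 TPM in NG and at 52.2, 46.0 and 54.3 TPM in HG. XBP1 was at 34.6, 40.6 and 47.3 TPM in si-FGF9 and at 63.7, 63.8 and 75.1 TPM in HG+OE-FGF9. Unlike for HSPA5 and HERPUD1, the 3 HG libraries were close to each other, and all lay below the HG+OE-FGF9 and NG libraries. Against NG, XBP1 differed by -0.99 in HG (SE 0.15, adjusted p 0.000933), just under the fold of the call, and -1.31 in si-FGF9 (SE 0.15, adjusted p 1.99e-05). After the correction for GC content XBP1 was at -0.06 in HG and turned to 0.14 in si-FGF9, where the call was lost, and with median-of-ratios scaling it was at -0.48 and -0.29, also not called. The call in HG was reached without NG replicate 2, NG replicate 3, HG replicate 1 or HG replicate 3, with values of -1.05 to -0.90 over all libraries left out. The TPM are summed over transcripts, so that spliced and unspliced XBP1 are not separated. ERN1 was at 3.76 to 3.85 TPM in NG and at 1.18, 0.830 and 4.03 TPM in HG, and its log2 fold change of -0.82 (adjusted p 0.0393) became -1.27 (called) without HG replicate 3.

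In translocation and export, SSR1 and SEC24D were called lower in HG, and these with SEC61A1 in si-FGF9, where 22.7% and 42.2% of all genes were. SEC24D is a cargo adaptor of the COPII coat that carries proteins from the ER to the Golgi. SEC24D was at 62.9, 56.8 and 51.1 TPM in NG and at 17.5, 10.8 and 20.1 TPM in HG. It was at 4.85, 6.02 and 4.51 TPM in si-FGF9 and at 7.34, 8.51 and 17.7 TPM in HG+OE-FGF9. All NG libraries lay above all others and all si-FGF9 libraries below all others. SEC24D differed from NG by -1.79 (SE 0.29, adjusted p 0.00116) in HG and by -3.24 (SE 0.29, adjusted p 7.7e-06) in si-FGF9 on the log2 scale, the lowest of the 36 genes in each. SEC24D was the 1 gene called lower in HG after the correction for GC content (-1.21, adjusted p 0.00199), and was called there in si-FGF9 too (-2.26, adjusted p 7.64e-06).

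SEC61A1 and SEC61B encode subunits of the same translocation channel. On the TPM scale SEC61A1 lay below NG and SEC61B above it. With median-of-ratios scaling SEC61A1 no longer lay below NG (0.24, adjusted p 0.114 in HG and 0.01, adjusted p 0.957 in si-FGF9) and was called in neither. SEC61B was at 186, 196 and 189 TPM in NG, at 333, 267 and 264 TPM in HG, at 231, 254 and 214 TPM in si-FGF9 and at 268, 276 and 296 TPM in HG+OE-FGF9. NG lay below all other libraries. HG differed from NG by 0.58 (SE 0.12, adjusted p 0.00284) and si-FGF9 by 0.29 (adjusted p 0.0523), and both passed the call with median-of-ratios scaling (1.10 and 1.32, adjusted p 1.09e-05 for the latter). SEC61A1 was at 83.9, 84.9 and 89.6 TPM in NG, at 66.7 to 74.3 TPM in HG and at 42.4, 41.1 and 43.3 TPM in si-FGF9. Its si-FGF9 difference was -1.01 (SE 0.12, adjusted p 1.84e-05) and was lost as a call without NG replicate 3 or si-FGF9 replicate 2 (-1.03 to -0.98 over all libraries left out). SSR1 and SSR3 are subunits of the translocon-associated complex. SSR1 was called lower in HG (-1.18, adjusted p 0.0081) and in si-FGF9 (-1.79, adjusted p 0.000248), and SSR3 in neither (-0.29 and -0.59). The SSR3 values turned to 0.74 and 0.97 after the correction for GC content, also not called. With median-of-ratios scaling they were 0.22 and 0.43, not called either. The HG call of SSR1 was lost without NG replicate 1 (-1.10) or HG replicate 2 (-0.89), and both of its calls were lost after the correction for GC content (-0.18 and -0.26).

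Of the 15 calls in HG versus NG, 8 were made in each of the 12 fits that left out 1 library. The count was 9 without HG replicate 2, 10 without NG replicate 1 and 19 without HG replicate 3, when HSPA5, HERPUD1, ERN1 and XBP1 were added. Of the 18 lower calls in si-FGF9 versus NG, 16 were made in all 12 fits, and of the 2 higher calls 0 were. Of the 3 calls in HG+OE-FGF9 versus HG, 0 were made in all 12. There, 7 genes were called higher without HG replicate 3 (HSPA5, DNAJB9, MANF, HERPUD1 and ERN1 added, CRELD2 lost). Without HG replicate 2, 2 genes were called lower there (ERO1A and SSR1). No share over all genes was counted for the fits that left out 1 library. Whether the counts moved more in the genes described here than in all genes was therefore not tested.

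The spread within HG was wider than in the other groups. The median SD of log2(TPM + 1) over the 36 genes was 0.396 in HG, against 0.137 in NG, 0.187 in HG+OE-FGF9 and 0.201 in si-FGF9. HG replicate 3 exceeded the mean of HG replicates 1 and 2 by more than 2 times in 11 of the 36 genes (30.6%) and in 17.8% of all genes tested, with a median ratio of 1.41 and 1.12. The 11 were HERPUD1 (7.44), HSPA5 (7.23), DNAJB9 (4.45), ERN1 (4.01), DERL3 (3.23), DNAJC3 (3.16), SEL1L (2.71), MANF (2.49), SDF2L1 (2.46), HSP90B1 (2.45) and ERO1B (2.36). SYVN1, CRELD2 and EDEM2 lay at 0.59 to 0.62. Outside the 36 genes, DDIT3 (CHOP), the pro-apoptotic factor of the PERK branch, was at 129, 110.2 and 1493 TPM in the HG libraries, and PPP1R15A (GADD34), which reverses eIF2α phosphorylation, at 66.1, 59.7 and 311 TPM. DDIT3 was at 480 to 595 TPM in NG, 578 to 1182 TPM in si-FGF9 and 561 to 786 TPM in HG+OE-FGF9. PPP1R15A was at 248 to 257, 96.1 to 200 and 160 to 210 TPM in these groups. With all libraries neither was called. Both were called without HG replicate 3, DDIT3 at -2.11 and PPP1R15A at -1.98 in HG versus NG, and at 2.54 and 1.59 in HG+OE-FGF9 versus HG. What sets this library apart was not tested.

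Fold change followed the GC content of the transcript, in the 36 genes as in all genes. Spearman's rho across genes, which are not independent replicates, was 0.56 for the 36 genes and 0.64 for all genes in HG versus NG, 0.53 and 0.57 in si-FGF9 versus NG, and 0.35 and 0.29 in HG+OE-FGF9 versus HG. GC content of the longest transcript ranged from 37.0% to 65.5% with a median of 45.4%, and the median over all genes tested was 48.3%. The 15 genes called lower in HG had a median GC content of 41.2%, the 18 called lower in si-FGF9 41.4%, and the 3 called higher in HG+OE-FGF9 59.9%.

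After a smooth GC trend was subtracted from each library, the median log2 fold change of the 36 genes was -0.21 in HG versus NG, -0.19 in si-FGF9 versus NG and 0.08 in HG+OE-FGF9 versus HG. Over all genes the median was -0.02, -0.07 and -0.05, and 29, 22 and 11 of the 36 genes lay below it. In HG versus NG, 1 gene was then called lower (SEC24D, where 3.06% of all genes were) and 2 higher (DERL1 and DERL2, background 3.78%). In si-FGF9 versus NG, 4 were called lower (CANX, PDIA4, EIF2AK3 and SEC24D, background 12%) and 5 higher (DNAJB11, DERL1, DERL2, DERL3 and SEC61B, background 12.3%). In HG+OE-FGF9 versus HG the same 3 genes, SDF2L1 (1.22), CRELD2 (1.11) and DERL3 (1.44), were called higher (background 3.03%) and 0 lower (background 2.18%). The trend with GC content ran through all genes and differed between the groups, and its part in the differences of the 36 genes was not tested beyond this correction.

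**Figure D4:**
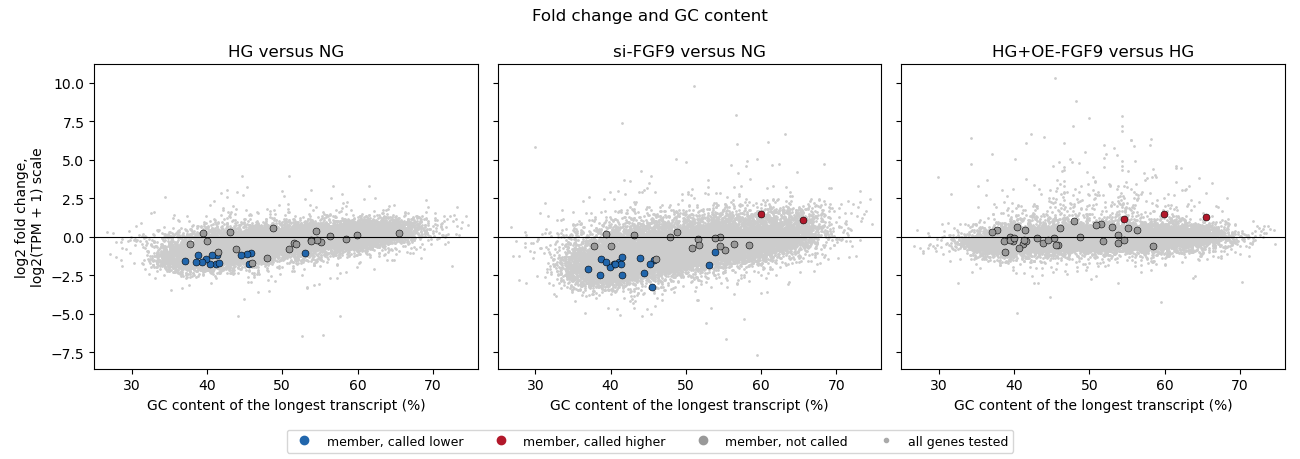
The log2 fold change on the log2(TPM + 1) scale is plotted against the GC content of the longest transcript (%) for all genes tested (grey dots) and the 36 genes (circles; blue called lower, red called higher, dark grey not called) in the 3 comparisons. The 15 and 18 blue circles lie at a median GC content of 41.2% and 41.4%, in the part of the plot where the cloud of all genes is also below 0.

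Of 121 further genes of the same pathways, 120 passed the filter on low values (ERN2 did not). In HG versus NG 33 were called lower and 1 higher, in si-FGF9 versus NG 62 lower and 4 higher, and in HG+OE-FGF9 versus HG 5 lower and 5 higher. These are 27.5%, 51.7% and 4.17% called lower, beside 22.7%, 42.2% and 2.67% of all genes. Called higher were 0.833%, 3.33% and 4.17%, beside 1.65%, 5.36% and 2.94% of all genes. In the PERK branch, 5 of 12 genes (EIF2S1, PPP1R15B, ATF3, VLDLR and NFE2L2) were called lower in HG and in si-FGF9, where 22.7% and 42.2% of all genes were, so that the si-FGF9 count is near the share over all genes. The correction for GC content removed the HG calls of EIF2S1 (-0.004) and VLDLR (-0.44) and the si-FGF9 call of EIF2S1 (-0.52). In HG+OE-FGF9 versus HG, 4 of the 12 were called higher (TRIB3, ATF3, ASNS and SESN2, background 2.94%) and VLDLR lower. ATF4 itself was at 213 to 335 TPM over all HG and NG libraries and was called in no comparison.

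ATF3, a stress-induced transcription factor downstream of ATF4, was at 85.5, 64.5 and 66.0 TPM in NG, 13.3, 8.29 and 21.6 TPM in HG, 6.04, 7.91 and 5.45 TPM in si-FGF9 and 61.3, 63.5 and 41.5 TPM in HG+OE-FGF9. No groups overlapped in the 3 comparisons, which gave log2 fold changes of -2.33 (adjusted p 0.000588), -3.29 (adjusted p 6.98e-06) and 1.94 (adjusted p 0.00246), all called after the correction for GC content as well. ASNS (asparagine synthetase), an ATF4 target, was at 36.1, 29.3 and 65.9 TPM in HG and 132, 135 and 129 TPM in HG+OE-FGF9 (1.65, adjusted p 0.00246). VLDLR was at 62.0, 37.8 and 49.9 TPM in HG and 12.3, 13.5 and 23.3 TPM in HG+OE-FGF9 (-1.58, adjusted p 0.00279).

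Among the genes of folding, translocation, degradation and export, the lowest in HG versus NG after ATF3 were YOD1, a deubiquitinase of the degradation pathway (-2.31, adjusted p 0.00377), and UBXN4, an ER receptor of the p97 segregase (-2.22, adjusted p 0.00138). FKBP2, a prolyl isomerase of the ER, was the 1 gene called higher (1.04, adjusted p 0.00591), and was not called after the correction for GC content (0.75). In si-FGF9 versus NG, UBXN4 (-3.58, adjusted p 1.35e-05) and SAR1B, the GTPase that starts COPII assembly (-3.23, adjusted p 1.31e-05), were the lowest beside ATF3. SEC62, a translocation factor, was at 135, 112 and 111 TPM in si-FGF9 against 49.2, 39.4 and 33.8 TPM in NG (1.54, adjusted p 0.00058). SSR4, a further subunit of the translocon-associated complex, was at 1009, 993 and 1218 TPM against 417, 487 and 485 TPM (1.21, adjusted p 1.44e-05), the opposite direction to SSR1. SEC11C, a catalytic subunit of the signal peptidase, was called higher against NG in si-FGF9 (1.04, adjusted p 0.000751) and against HG in HG+OE-FGF9 (1.33, adjusted p 0.00318), with 59.8, 63.5 and 55.8 TPM against 28.4, 19.5 and 22.5 TPM in the latter. UGGT1, the folding sensor that reglucosylates glycoproteins (-1.21, adjusted p 0.0276), and SPCS3, a signal peptidase subunit (-1.11, adjusted p 0.00282), were called lower when HG+OE-FGF9 was compared with HG. The SPCS3 value was -0.77 and not called after the correction for GC content.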

How the data were processed

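HK2 cells of 4 groups (3 libraries each) were grouped by the sample labels. The authors deposited TPM per Ensembl gene for each library. The submitters' processing notes list Bowtie 0.12.2 and mm8, a mouse build, while the identifiers are human, and the quantification tool and the build behind the TPM are otherwise not given in the sources used here. Library depth is unknown, so that no counting error is given.

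limma 3.58.1 in R 4.3.3 was run on log2(TPM + 1) with a variance trend, the group as the only term and all 12 libraries, over the 14639 genes that reached 1 TPM in at least 3 libraries. Calls required a log2 fold change of at least 1 with unadjusted p under 0.01, the rule the study gives for these libraries, with Benjamini-Hochberg adjustment beside it. The fit was tested on simulated data. GC content came from the longest transcript in GENCODE release 29 (96.9% of the genes tested), and its correction subtracted a natural spline with 5 degrees of freedom per library. The alternatives were filters, pseudocounts, thresholds, scalings, the replicate number as a block, and each library left out. Averaging the closest pairs and searching for ERSE-II were added after the data were seen. The 36 genes and all lists were chosen with earlier results of these data known. All 36 genes are described. Of the 121 further pathway genes, the 3 called genes with the largest fold change in each direction were named, and the PERK branch genes, DDIT3 and PPP1R15A were named after their values were seen.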

Additional observations from a re-analysis of the deposited data

How the results depend on the processing

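With median-of-ratios scaling, HG versus NG gave 6 lower and 1 higher (median -0.46), si-FGF9 versus NG 6 lower and 5 higher (median -0.14), and HG+OE-FGF9 versus HG a median of 0.065, where SEC61A1 in si-FGF9 versus NG turned to 0.0083. With the correction for GC content, with or without the replicate block, HG versus NG gave 1 lower and 2 higher (median -0.21), si-FGF9 versus NG 4 lower and 5 higher (median -0.19), and HG+OE-FGF9 versus HG a median of 0.085, and DNAJB11 (1.04), ERO1A (0.17) and XBP1 (0.14) turned in si-FGF9 versus NG. An adjusted p under 0.05 with any fold change gave 1 higher in HG versus NG, and 2 lower and 5 higher in HG+OE-FGF9 versus HG. A pseudocount of 0.1 gave a median of -1.03 in HG versus NG. In si-FGF9 versus NG, 1 gene was higher where 1 TPM was required in all 12 libraries, a filter that leaves out DERL3, and 0 with the closest pairs averaged. The cause was not tested. Leaving out each library gave 9 to 19 lower in HG versus NG (median -1.05 to -0.74), 17 to 19 lower and 0 to 2 higher in si-FGF9 versus NG (median -1.19 to -1.05), and 0 to 2 lower and 2 to 7 higher in HG+OE-FGF9 versus HG (median -0.13 to 0.03). For these fits no share over all genes was counted. Of 2472 values of single genes under these alternatives, 7 reversed, 111 lost and 52 gained a call, and 81 more changed sign while called in neither fit.

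Replicate numbers gave no clear pairing of the libraries. The library of the comparison group that deviated most alike had the same number for HG replicate 1, si-FGF9 replicates 1 and 3, and HG+OE-FGF9 replicates 2 and 3. For the rest it had another number. Same-numbered libraries deviated together with correlations of -0.16 to 0.09 in HG versus NG, -0.04 to 0.17 in si-FGF9 versus NG, and between HG+OE-FGF9 and HG of -0.14 to 0.25. The replicate block alone gave 15 lower and 0 higher, 18 lower and 2 higher, and 0 lower and 3 higher, and changed 0 of the calls.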
